A study of Mus musculus with 2 samples.

Results

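The calcium/calmodulin kinase genes were described in open chromatin of mouse hippocampus, as 10 genes chosen by name from the 21938 protein-coding genes of the GENCODE M21 annotation: Camk2a, Camk2b, Camk2d, Camk2g, Camk4, Camk1, Camk1d, Camk1g, Camkk1 and Camkk2. Open chromatin was measured by DNase-seq, in which the enzyme DNase I cuts DNA that is not tightly packed, and each peak is a stretch cut more often than its surroundings. The study has 1 group of 2 libraries, called replicates 1 and 2, from female B6CASTF1/J mice aged 8 to 10 months, an F1 cross of an inbred laboratory strain with a wild-derived one. No treatment or other genotype is given, and each library was made from 2 pooled biosamples whose separate animals the labels do not name, so the spread between libraries may be partly technical. The labels call the tissue a layer of hippocampus. It is bulk tissue, so a site open in few cells and a site weakly open in many cells cannot be told apart.

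Calcium that enters a neuron binds calmodulin, and calcium-bound calmodulin switches these kinases on. The alpha, beta, gamma and delta subunits of CaMKII, made by Camk2a, Camk2b, Camk2g and Camk2d, assemble into a large ring-shaped enzyme that can keep itself active by phosphorylating its own subunits. CaMKII is among the most abundant proteins of excitatory synapses and is needed for long-term potentiation in the hippocampus. Camk4 encodes a mostly nuclear kinase that phosphorylates the transcription factor CREB. Camk1, Camk1d and Camk1g encode CaMKI isoforms, with roles in axon and dendrite growth. Camkk1 and Camkk2 encode the upstream kinases that phosphorylate and activate CaMKI and CaMKIV, and Camkk2 also activates the energy sensor AMPK.

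Replicate 1 had 98902 peaks and replicate 2 had 130199 peaks, with 244447 and 251726 footprints, which are short stretches inside open DNA that were cut less than expected and are read as covered by protein. Peak height is given as the authors' signal, with a median of 0.600 in replicate 1 and 0.580 in replicate 2, which corresponds to 99 and 73 of the smallest steps in which each library's signal was written. As a check of the tissue, a start was open in both libraries for 5 of 5 pan-neuronal marker genes and for 3 of 4 markers each of dentate granule cells, CA1 and CA3 with CA2. The counts were 4 of 5 for astrocytes, 4 of 5 for oligodendrocytes, 1 of 5 for interneurons, 1 of 4 for microglia, 1 of 4 for endothelial cells and 0 of 6 for liver and muscle. Most pan-neuronal, granule cell, CA1, CA3 with CA2, astrocyte and oligodendrocyte markers thus had a start open in both libraries, and few of the interneuron, microglia and endothelial markers did. A start peak in replicate 2 alone was found for the interneuron markers Gad2 and Pvalb and the microglia marker Csf1r. The microglia marker P2ry12 had one in replicate 1 alone. Over all protein-coding genes the share was 59.2%, so with 4 or 5 genes in most lists these counts only describe the markers. The part of each cell type in the kinase genes' peaks was not tested.

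The sequences of 6 sites carry most of what follows, and each is printed on the sense strand of its gene, from the reference assembly of the mm10 coordinates (RefSeq GRCm38.p6). Capitals mark bases inside a footprint in both libraries, except for Camk1g, where they mark footprints of replicate 2, the library with a peak there. Camk2d and Camkk1 are shown because their 5′ starts had the highest signals of the family, the Camkk1 intron because it was the highest site outside a start, Camk2b and Camk2g because their highest own sites lay far inside the gene, and Camk1g because its start was open in 1 library.
Camk2d start, chr3:126596141-126596400, plus strand: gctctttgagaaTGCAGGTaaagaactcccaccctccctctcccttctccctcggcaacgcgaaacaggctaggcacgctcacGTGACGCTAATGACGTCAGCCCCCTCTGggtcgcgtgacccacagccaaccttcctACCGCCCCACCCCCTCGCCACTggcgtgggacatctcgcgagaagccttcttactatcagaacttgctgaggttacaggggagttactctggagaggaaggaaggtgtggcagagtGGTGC
Camkk1 start, chr11:73018781-73018987, plus strand: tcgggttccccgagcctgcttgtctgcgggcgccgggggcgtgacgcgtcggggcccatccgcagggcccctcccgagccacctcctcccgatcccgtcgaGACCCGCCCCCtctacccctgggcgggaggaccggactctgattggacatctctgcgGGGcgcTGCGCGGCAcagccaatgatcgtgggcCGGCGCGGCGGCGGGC
Camkk1 intron, chr11:73023201-73023440, plus strand: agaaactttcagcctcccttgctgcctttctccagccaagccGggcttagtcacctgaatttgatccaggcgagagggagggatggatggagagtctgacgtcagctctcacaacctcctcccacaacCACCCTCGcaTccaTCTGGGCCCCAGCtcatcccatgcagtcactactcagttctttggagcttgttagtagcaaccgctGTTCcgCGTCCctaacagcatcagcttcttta
Camk2b internal start, chr11:6000401-6000660, minus strand: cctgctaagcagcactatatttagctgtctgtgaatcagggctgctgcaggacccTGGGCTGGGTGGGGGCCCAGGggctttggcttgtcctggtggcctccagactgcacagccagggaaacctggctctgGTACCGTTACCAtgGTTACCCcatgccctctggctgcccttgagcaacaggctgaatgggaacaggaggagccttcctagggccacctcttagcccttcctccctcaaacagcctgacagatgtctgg
Camk2g inner site, chr14:20766001-20766220, minus strand: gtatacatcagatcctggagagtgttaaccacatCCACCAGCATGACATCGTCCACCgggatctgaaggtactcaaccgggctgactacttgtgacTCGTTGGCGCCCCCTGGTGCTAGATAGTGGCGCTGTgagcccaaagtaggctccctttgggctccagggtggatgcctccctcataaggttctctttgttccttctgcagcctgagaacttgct
Camk1g start, chr1:193370299-193370368, minus strand: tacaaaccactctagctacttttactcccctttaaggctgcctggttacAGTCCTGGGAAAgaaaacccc

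Of the 10 kinase genes, 9 had a peak in both libraries within 500 bp of an annotated transcript start (90.0%, Wilson 95% interval 59.6 to 98.2%, which covers counting error only), against 59.2% of all protein-coding genes. Camk1g was the exception and had a peak at its start in replicate 2 alone. At the 5′ end of the gene record itself, 8 of the 10 were open in both libraries, against 53.3% of all genes. Camk4 was the gene open elsewhere, at a start inside its record. No start window of a kinase gene overlapped that of another protein-coding gene. The 10 genes were chosen with earlier results of these data known, so these shares only describe them.

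Nearby starts were joined into start regions, and the 10 genes had 36 of them. Of these, 12 were open in both libraries (33.3%, Wilson 95% interval 20.2 to 49.7%), against 30.9% of the 48607 start regions of all protein-coding genes. The 8 of 10 regions at a 5′ end compare with 54.2% of the regions at the 5′ end of any gene. Among regions further inside the genes, 4 of 26 were open in both (15.4%), against 11.7% of such regions in all genes. In 21 of the 36 kinase regions neither library had a peak, and none of these 21 held a base listed at a false discovery rate below 0.05 in either library. Of the 21, 13 held no start of a transcript annotated as coding. No all-gene share was taken for these closed regions, so the counts only describe the kinase genes.

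**Figure D1:**
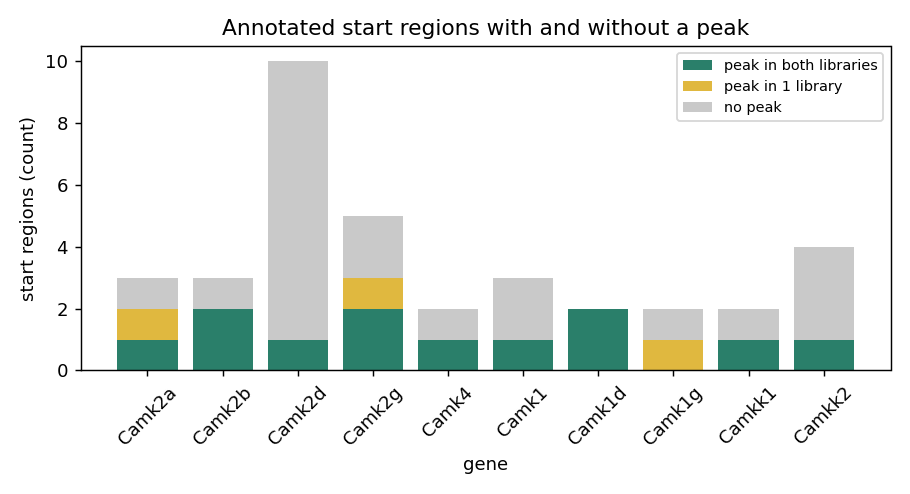
Number of annotated start regions of each kinase gene (y axis, count) by gene (x axis), coloured by whether a peak of both libraries, of 1 library or of neither touched the region. Camk2d has 10 regions, of which 1 was open, and Camk1d is the gene with every region open in both libraries.

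The open starts of the family lay between percentiles 7.88 and 68.8 of the signals of genes open at the 5′ end. Taking for each gene the open start region nearest its 5′ end, the mean signal ran from 3.56 at Camk2d to 0.612 at Camk4, a ratio of 5.82 over 9 genes. The median of these 9 was 1.25, and 3 of the 9 lay above 2.33, the median of the 11683 protein-coding genes open at their 5′ end, whose middle range (25th to 75th percentile) was 1.21 to 4.10. Those 3 were Camk2d, Camkk1 and Camk2a. Neighbours in this order whose library values overlapped, and which therefore did not differ beyond their spread, were Camkk1 with Camk2a and Camk2b with Camkk2, and the values of Camkk2 also overlapped those of Camk2g. The libraries put each of these pairs in opposite orders, except that both gave Camk2g the higher value than Camkk2. No test between genes was made over 2 libraries.

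**Figure D2:**
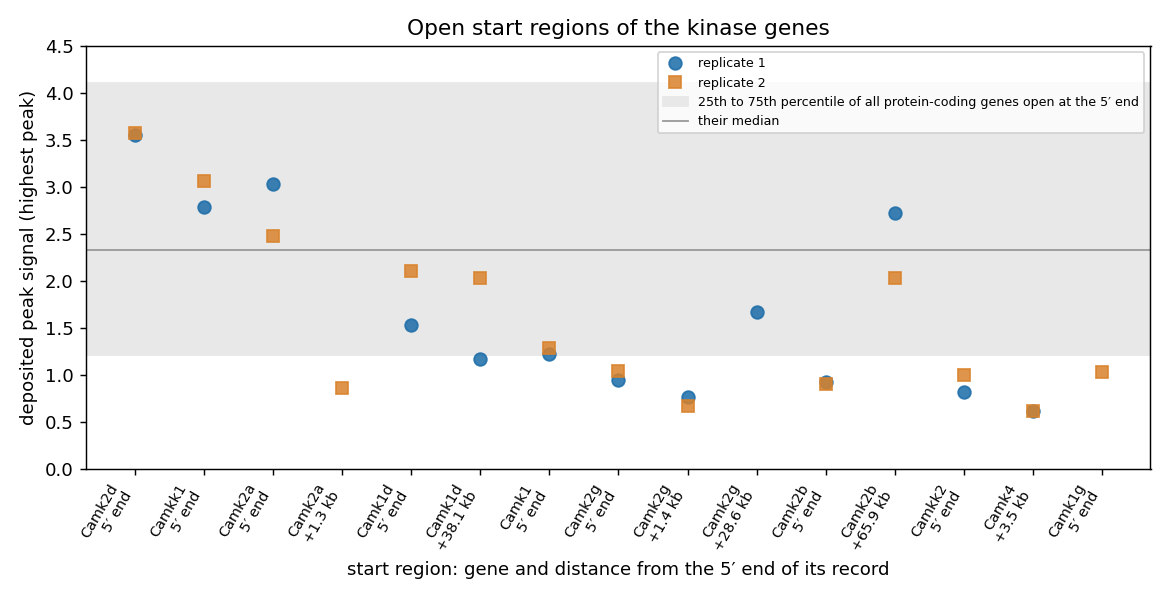
Deposited signal of the highest peak (y axis) at each start region of the kinase genes that was open in at least 1 library (x axis, gene and distance from its 5′ end). Circles are replicate 1 and squares replicate 2, the grey band spans the 25th to 75th percentile of protein-coding genes open at the 5′ end and the line is their median, 2.33. Camk2d, Camkk1 and Camk2a lie above the line at their 5′ ends in both libraries.

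Camk2a encodes the alpha subunit of CaMKII, the most abundant one in forebrain excitatory neurons. Its gene record spans 62.5 kb of chromosome 18 (chr18:60925618-60988152, plus strand). At its 5′ start replicate 1 gave a signal of 3.04 and replicate 2 one of 2.48, with a mean of 2.76 ± 0.39 (SD, n = 2), at percentile 57.2 of genes open at the 5′ end. Its start thus ranked near the middle of open starts. A second region 1.33 kb downstream was open in replicate 2 alone, at 0.859, and another region, 37.9 kb downstream and the start of 2 coding transcripts, had no peak. The 5′ region had a ratio of observed to expected CpG dinucleotides of 0.297, at percentile 32.9 of all genes.

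Around Camk2a the open sites clustered near the 5′ end. The gene and its 20 kb flanks held 18 sites after peaks of both libraries were joined, of which 13 were found in both. The highest of them outside a start lay 6.53 kb upstream, between genes (chr18:60918961-60919220), with signals of 2.33 and 2.44, at percentile 97.3 of the 60527 shared sites outside starts. Intronic sites followed 7.11 kb downstream, at 1.80 and 2.46, and 8.91 kb downstream, at 2.29 and 2.27. Another intronic site stood apart, 52.9 kb downstream, at 1.48 and 2.20. None of its sites was called in replicate 1 alone.

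Camk2b encodes the beta subunit, which also binds actin filaments. The record runs over 96.7 kb (chr11:5969644-6066362, minus strand). Its 5′ region, where 10 of the gene's 12 distinct starts lie, had signals of 0.921 and 0.906, with a mean of 0.914 ± 0.010 (SD, n = 2), at percentile 16.98. A start 65.9 kb further inside, that of Camk2b-213, a transcript not annotated as coding, had 2.73 in replicate 1 and 2.03 in replicate 2, with a mean of 2.38 ± 0.49 (SD, n = 2). Both libraries therefore placed the inner site above the main promoter. Its printed sequence has 1 CpG in 260 bases and 40 bases in shared footprints, whereas the Camk2d start has 14 CpG in 260 bases.

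The capitals of the Camk2b inner site include a near-palindrome of the X-box kind bound by RFX factors, at bases 138 to 151, with 12 of its 14 bases in capitals. This pattern was searched for after the sequence had been seen, so the Camk2b match was given in advance. On both strands, 2 of 18 shared kinase start sites hold it, at Camk2a and Camk2b, against 0.618% of 17973 shared start sites of all genes, with 300 bp read around the middle of each site. Outside starts it was present at 0 of 85 shared kinase sites, against 1.04% of 60527. A match is a description of letters and not evidence of a bound factor.

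Camk2b also had the lowest share of sites found in both libraries. Of its 25 sites 8 were found in both libraries (32.0%), 12 in replicate 1 alone and 5 in replicate 2 alone. The 12 sites of replicate 1 were weak, between 0.206 and 0.485, and 8 of them lay in introns of the gene. The 8 shared sites were between 0.757 and 3.08. The highest shared intronic site, 35.5 kb downstream of the 5′ end (chr11:6030781-6031000), had signals of 1.67 and 1.90, and 4 of its 4 footprints in replicate 1 overlapped one of replicate 2. The highest shared site of the neighbourhood was the start of Ykt6, a membrane fusion gene, at 2.96 and 3.20.

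Camk2d encodes the delta subunit, best known from heart muscle and also made in brain. Its record covers 250 kb (chr3:126596302-126846326, plus strand) and has 28 transcripts, more than any other kinase gene here. At its 5′ start the signals were 3.55 and 3.57, with a mean of 3.56 ± 0.01 (SD, n = 2), the highest of the family and at percentile 68.8. The other 9 start regions, between 182 and 211 kb downstream, had no peak in either library. Both libraries thus placed the gene's open starts in 1 region, which holds 16 of its 26 distinct starts.

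The 260 bp Camk2d start site has 62 bases in footprints of both libraries. The longest run of capitals contains TGACGTCA, the full CRE bound by CREB and related factors, at bases 94 to 101, and all 8 of its bases are capitals. The SP/KLF pattern GGGCGG is read on the opposite strand at bases 141 to 146, again within capitals. Searched on both strands, the full CRE was present at 1 of 18 shared kinase start sites, against 539 of all 17973 shared start sites, and GGGCGG at 9 of 18, against 58.7%.

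Downstream of its start Camk2d was sparsely open. Its 290 kb neighbourhood had 14 peaks in replicate 1 and 15 in replicate 2, or 4.83 and 5.17 per 100 kb, against all-gene medians of 5.55 and 7.15. The highest site outside a start lay in an intron 99.4 kb downstream (chr3:126695501-126695840), at 2.12 and 1.69. A pair of intronic sites 127 and 130 kb downstream followed, with means of 1.03 ± 0.15 and 1.14 ± 0.25 (SD, n = 2).

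Camk2g encodes the gamma subunit, present in many tissues, which in neurons can carry calmodulin towards the nucleus. The record covers 59.2 kb (chr14:20734875-20794088, minus strand). Its 5′ region had signals of 0.939 and 1.04, with a mean of 0.990 ± 0.072 (SD, n = 2), at percentile 18.9. The GC content there, 72.1%, was above the 75th percentile of all genes, 61.0%, and the CpG ratio of 0.729 lay at percentile 69.4. A second region 1.42 kb downstream was open at 0.763 and 0.668. The next region, at 2.93 kb, had no peak.

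The highest site of Camk2g lay inside the gene, 28.0 kb downstream (chr14:20766001-20766220), at 1.67 in replicate 1 and 2.32 in replicate 2. It lies at the edge of a start window, which the peak of replicate 1 touched and that of replicate 2 did not, so by the 500 bp rule the region counts as open in 1 library though the site was called in both. This site crosses coding sequence: 82 of its 220 bases are annotated as coding, 23 of them in capitals. Its longer run of capitals holds AGGGGGCGC, the core of the CTCF pattern, read on the opposite strand at bases 103 to 111, all 9 in capitals. That core was added after the sequence had been seen. It is present on either strand at 1 of 18 kinase start sites, against 2.61% of all. The 1 match is this site, so it was given in advance.

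By its highest peak, Camk4 had the lowest open start of the family. The record covers 256 kb (chr18:32934931-33191228, plus strand), and the 2 transcripts that begin at its 5′ end, neither of them coding, had no peak there. The coding starts, 3.46 kb downstream, had 0.612 in replicate 1 and 0.612 in replicate 2, with a mean of 0.612 ± 0.00022 (SD, n = 2), at percentile 7.88. These values equal 101 and 77 of the smallest signal steps, which are 0.00606 and 0.00795. The SD is smaller than 1 step of either library, so it is not a measure of their spread. At this region the peaks were broad and divided rather than tall, with 3 peaks in replicate 1, 4 in replicate 2, and 1119 and 1100 bases listed below 0.05. With all peaks at a gene's starts summed, Camk4 had 1.64, above Camk1 at 1.25 and Camkk2 at 1.20. Its lowest rank therefore holds for the highest peak only.

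Inside Camk4 several intronic sites had higher signal than the start. Of 14 intronic sites 12 were found in both libraries. A run of 4 shared sites lay 20.2 to 24.4 kb downstream of the 5′ end, and its highest member (chr18:32955601-32955940) had signals of 0.939 and 1.42, at percentile 81.3 of shared sites outside starts. A further intronic site 102 kb downstream had 0.903 and 1.29. Across the 16 shared sites the median log2 ratio of replicate 2 to replicate 1 was 0.34, the largest among the kinase genes, against 0.23 over all 78500 shared sites.

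Camk1 encodes the founding CaMKI isoform. It is the smallest of these genes, at 9.86 kb (chr6:113334124-113343984, minus strand). Its 5′ start had signals of 1.22 and 1.29, with a mean of 1.25 ± 0.05 (SD, n = 2), at percentile 26.2. The 2 inner start regions had no peak, and no shared site outside a start lay within 20 kb. The tallest site in its neighbourhood belonged to Ogg1, a DNA repair gene whose start 17.2 kb away had signals of 8.94 and 7.43.

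Camk1d encodes the CaMKI delta isoform. The gene is the longest of the family, at 421 kb (chr2:5293457-5714515, minus strand). The 5′ start had signals of 1.53 and 2.11, with a mean of 1.82 ± 0.41 (SD, n = 2), at percentile 39.5. A second start region 38.1 kb downstream, which includes a coding transcript, had 1.16 and 2.03, with a mean of 1.60 ± 0.61 (SD, n = 2). Both libraries gave the 5′ start the higher value, narrowly in replicate 2, and the ranges of the starts over the libraries overlap.

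Camk1d had the most sites, 39 in all, of which 21 were shared and 33 were intronic. Their density was near the middle of all genes, with 5.21 peaks per 100 kb in replicate 1 and 8.03 in replicate 2, at percentiles 47.6 and 56.2. The highest site outside its starts was intronic, 77.2 kb downstream (chr2:5637101-5637520), at 1.24 and 1.81. Replicate 2 alone called 15 sites, and 1 of them, intronic and 119 kb downstream, reached 1.21, the highest value of any site in this family found in 1 library.

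Camk1g encodes the CaMKI gamma isoform, which is anchored to membranes by lipid groups. Its record covers 24.0 kb (chr1:193346346-193370298, minus strand). At its 5′ start replicate 1 had no peak, while replicate 2 had one of 1.03, or 130 of its signal steps (chr1:193370181-193370368). Replicate 1 was not silent there: it listed 65 bases below 0.05, with a lowest rate of 0.0201, against 188 bases and 0.00158 in replicate 2. The stretch below 0.05 was thus shorter in replicate 1 and its lowest rate higher. Its CpG ratio of 0.145 was the lowest of the family, at percentile 15.1 of all genes, and the 70 printed bases upstream of the start hold 0 CpG.

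Although its start was open in 1 library alone, Camk1g sat in a dense neighbourhood, the densest of the family in replicate 1 and second to Camkk1 in replicate 2. It had 28.1 peaks per 100 kb in replicate 1 and 20.3 in replicate 2, at percentiles 98.2 and 96.3 of all genes. All 4 of its intronic sites were shared, and the one 1.99 kb downstream of the 5′ end had 1.16 and 1.14. A large part of the density lay in the neighbouring gene Lamb3, a laminin subunit gene, which held 11 of the 20 sites. The highest of them (chr1:193330281-193330520), 39.9 kb away, had 1.82 and 2.61, whereas 7 others there were called in replicate 1 alone, at 0.182 to 0.491.

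Camkk1 encodes CaMKK alpha. Its record covers 23.1 kb (chr11:73019008-73042073, plus strand). The 5′ start had signals of 2.79 and 3.06, with a mean of 2.92 ± 0.19 (SD, n = 2), at percentile 59.7. An intronic site 4.31 kb downstream (chr11:73023201-73023440) was as tall, at 3.05 and 2.91, with a mean of 2.98 ± 0.10 (SD, n = 2), at percentile 98.7 of shared sites outside starts. A second intronic site, 12.03 kb downstream, had 2.27 and 2.90. Replicate 1 placed the first intronic site above the start and replicate 2 placed it below.

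The printed Camkk1 start has 27 CpG in 207 bases and a GC content of 75.4%. It contains GGGCGG at bases 105 to 110 on the opposite strand, inside capitals, and at bases 122 to 127, outside them, and CCAAT at bases 143 to 147 on the opposite strand and 177 to 181. The intronic site holds the full CRE TGACGTCA at bases 97 to 104, upstream of its longest run of capitals and outside them. Outside starts, the full CRE was present at 1 of 85 shared kinase sites, against 0.522% of 60527.

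Camkk2 encodes CaMKK beta. Its record covers 48.2 kb (chr5:122731170-122779409, minus strand). The start was weak, with 0.818 and 1.00, a mean of 0.910 ± 0.130 (SD, n = 2), at percentile 16.9, although it was the most CpG-rich of the family, with a ratio of 0.876 at percentile 89.2 of all genes. The 3 inner start regions had no peak. Its highest shared site outside a start lay 19.3 kb upstream, inside Anapc5 (chr5:122798641-122798860), at 1.59 and 1.88. Camk2a, at a CpG ratio of 0.297, had the higher start signal.

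**Figure D3:**
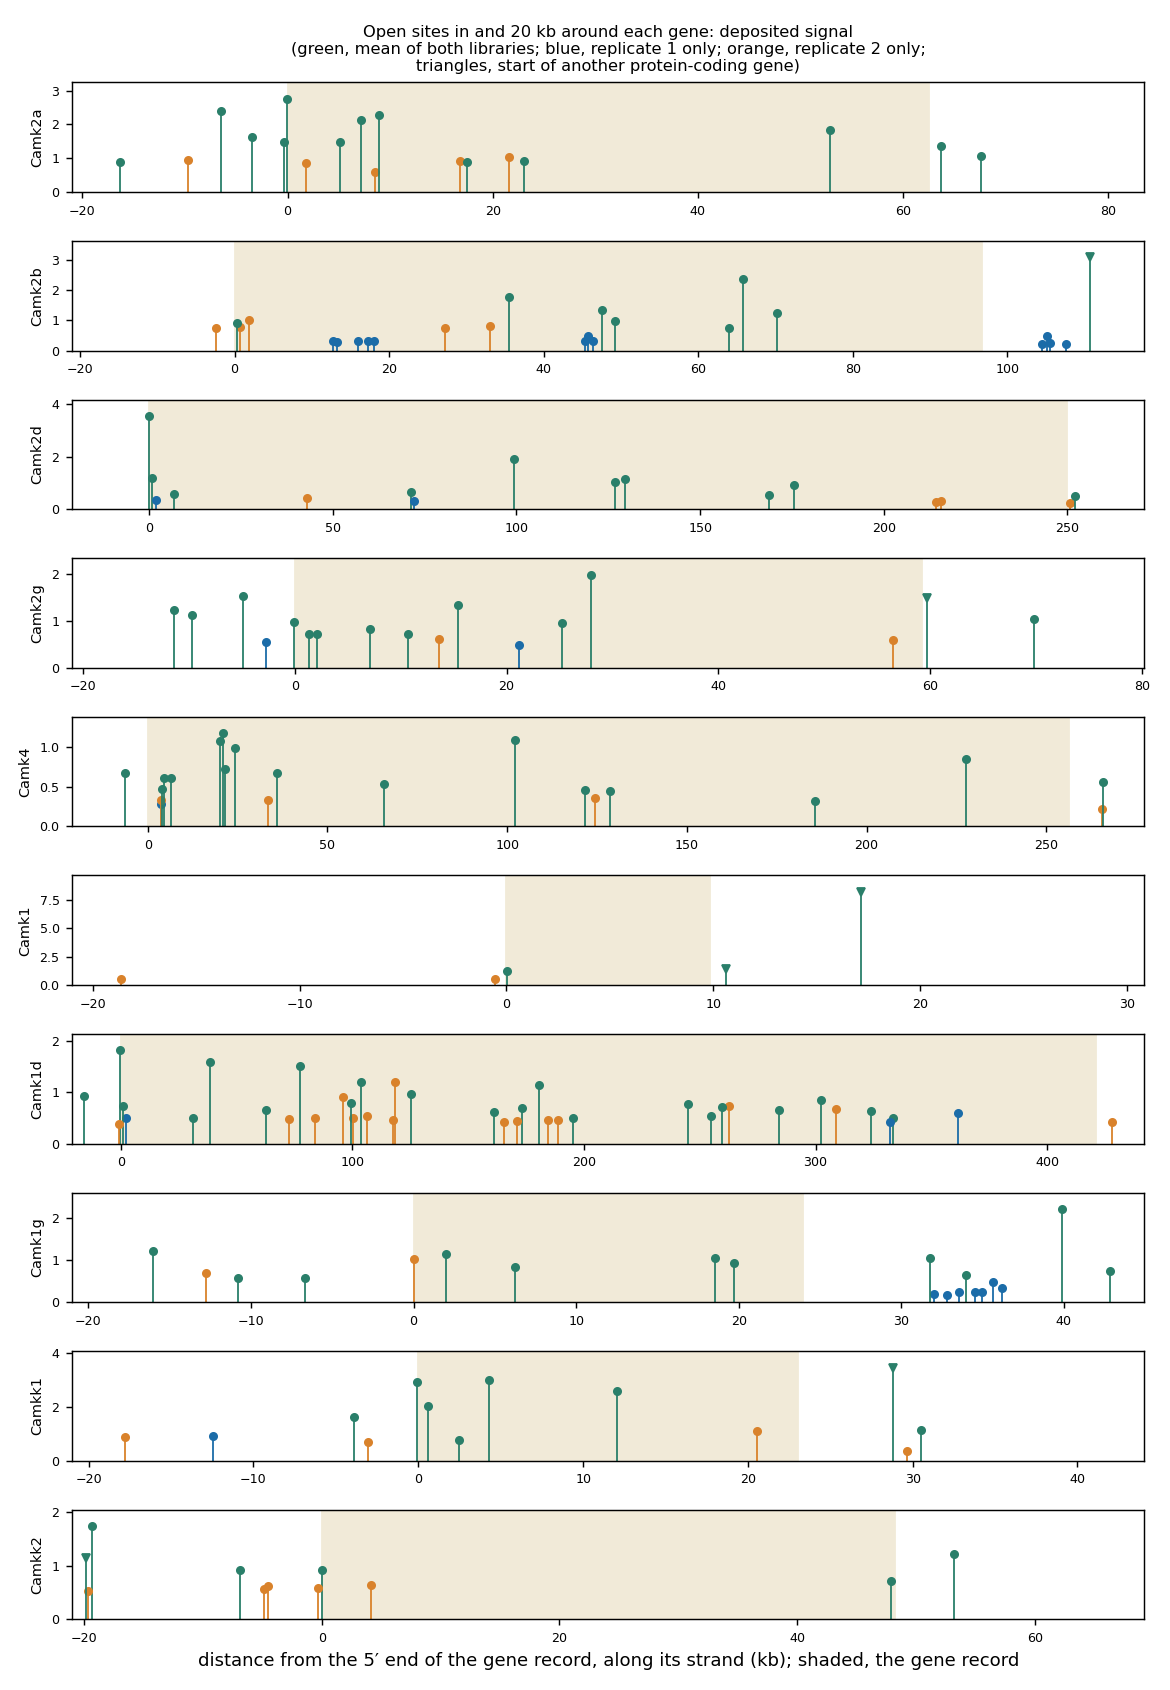
Open sites in and 20 kb around each kinase gene (rows), with distance from the 5′ end along the gene's strand in kb (x axis) and deposited signal (y axis, a separate scale for each row). Green stems are means of both libraries, blue stems sites of replicate 1 alone and orange stems sites of replicate 2 alone, triangles mark starts of other genes and shading the gene record. Weak blue stems cluster in Camk2b and beyond the end of Camk1g, and Camk4 has its tallest stems inside the gene.

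Across the 10 neighbourhoods, 185 joined sites were found, and 109 of them were called in both libraries (58.9%), against 54.0% of the 145362 sites of the whole list. Introns of the genes themselves held 97 sites, 57 of them shared, and start windows held 25, of which 18 were shared. Of the 141 peaks of replicate 1, 113 were found again in replicate 2 (80.1%, Wilson 95% interval 72.8 to 85.9%), against 81.6% of all its peaks. Of the 163 peaks of replicate 2, 115 were found in replicate 1 (70.6%, 63.1 to 77.0%), against 62.0%. The sites found in 1 library were mostly weaker than the shared ones, with a median of 0.321 for the 28 of replicate 1, near 0.364 for such sites of the whole list, and 0.576 for the 48 of replicate 2, above 0.374 for the whole list.

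Shared sites outside starts had higher signal around the kinase genes than in general. The 85 kinase sites had medians of 0.897 and 0.962 in replicates 1 and 2, while the 60527 such sites of the whole list had medians of 0.612 and 0.747. Both libraries gave this order, and it was not tested, since sites of 1 gene share their surroundings. Shared sites at the kinases' own starts had medians of 1.19 and 1.40 over 18 sites. Among the 109 sites called in both libraries, which leaves out the 28 and 48 called in replicate 1 or 2 alone, the log2 ratio of replicate 2 to replicate 1 had a median of 0.14 and an SD of 0.36, against a median of 0.23 and an SD of 0.41 over the 78500 shared sites. All 109 lay within 2-fold of the whole-list median ratio, against 98.2% of the shared sites of the whole list.

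The other patterns were searched on both strands over 300 bp around the middle of each site. Outside starts, the E-box CAGCTG, read by neuronal bHLH factors, was present at 27 of 85 kinase sites, against 26.6% of 60527, and the E-box CAGATG at 35 of 85, against 39.1%. The AP-1 pattern TGANTCA, bound by Fos and Jun proteins, was present at 19 of 85 (22.4%), against 15.4%, and CCAAT at 27 of 85, against 34.9%. The full CTCF pattern, by name only, was present at 2 of 85 sites, near Camk2a and Camkk2, against 0.824%, and an EGR pattern, GCGGGGGCG, at 1 of 85, against 0.330%. These differences were not tested.

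At starts, a MEF2 pattern was present at 2 of 18 kinase sites, those of Camk1d and Camk2b, against 2.60% of 17973. The NRF1 pattern was present at 0 of 18, against 8.49%, the ETS pattern CCGGAAGT at 0 of 18, against 5.96%, and the TATA box TATAAA at 0 of 18, against 4.37%. The EGR pattern GCGGGGGCG was also present at 0 of 18, against 4.81%. The short form of the CRE, TGACG, was present at 5 of 18, against 30.2%, and CCAAT at 5 of 18, against 35.1%. With 18 sites a single site is 5.56% of the total, so none of these counts was read as particular to the family.

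Peaks were dense around most of the family. The family's median was 9.74 peaks per 100 kb in replicate 1 and 11.2 in replicate 2, while that of all protein-coding genes was 5.55 and 7.15, and 8 of 10 and 9 of 10 kinase genes lay above those medians. Camk2d was below them in both libraries, and Camk1d in replicate 1. Camk1g, Camkk1 and Camk2g were among the 4 densest in both libraries, with Camk2b as the other in replicate 1 and Camk2a in replicate 2. Flanks of 20 kb weigh more in a short gene, and they include sites of neighbouring genes, as with Lamb3.

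**Figure D4:**
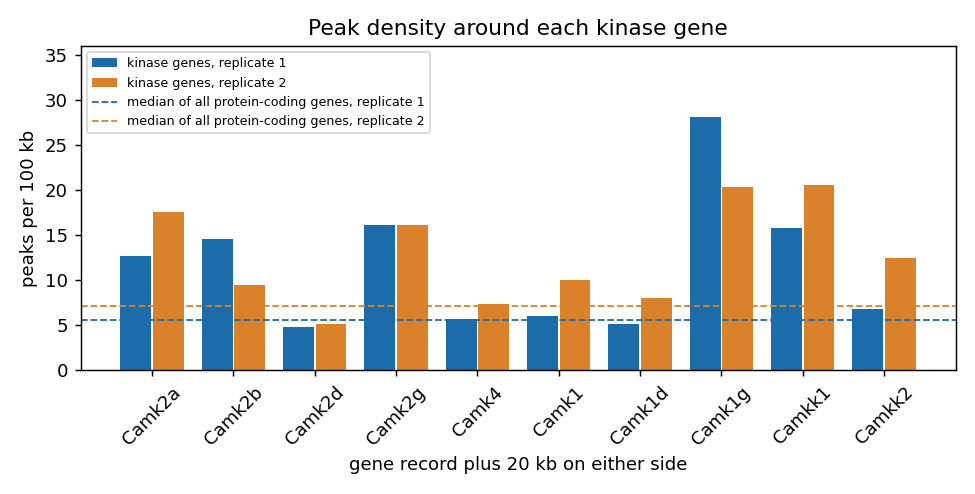
Peaks per 100 kb (y axis) in each kinase gene's record plus 20 kb on either side (x axis), with blue bars for replicate 1 and orange bars for replicate 2. Dashed lines are the medians of all protein-coding genes, 5.55 and 7.15. Camk1g has the tallest bar, 28.1, and Camk2d lies below both lines.

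Footprints covered a smaller share of the kinase promoter peaks than of promoter peaks in general, and this was not tested. The 22 promoter peaks of replicate 1 held 73 footprints, which covered 11.8% of their bases, and the 26 of replicate 2 held 55, covering 9.55%, against 17.1% and 14.5% in promoter peaks of all genes. Per peak there were 3.32 footprints in replicate 1 and 2.12 in replicate 2, against 3.26 and 2.81. Of the 73, 31 overlapped a footprint of replicate 2 (42.5%, Wilson 95% interval 31.8 to 53.9%), against 55.4% of 72229 for all genes. Camk1d had the most, 16 in replicate 1 and 10 in replicate 2, with 9 of the 16 shared, and Camkk1 the highest agreement, with 6 of 9 shared. The peaks of replicate 1 at the starts of Camk1 and Camkk2 held 1 and 2 footprints, and none of these was shared. The joined Camkk2 start site is wider than that peak and held 1 shared footprint. These 2 starts were also among the lower ones, at 1.25 and 0.910, and the part of signal height in the count was not tested.

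**Figure D5:**
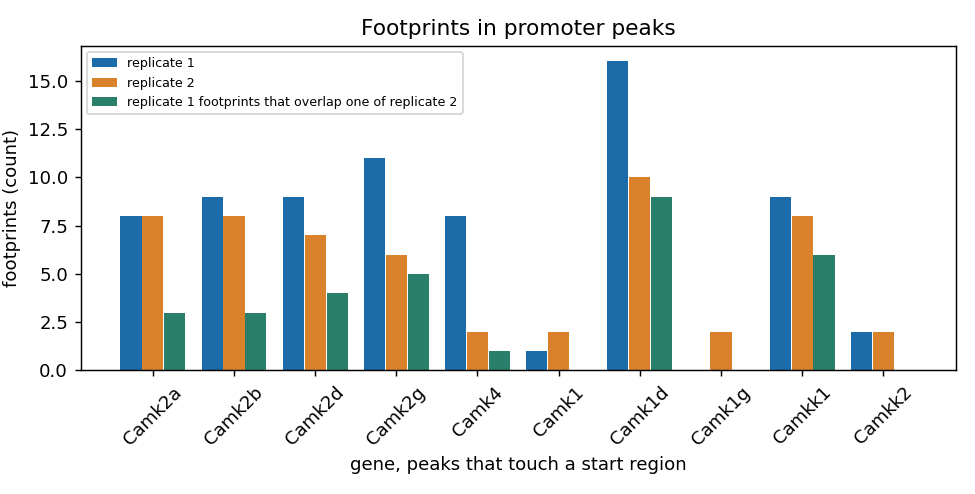
Footprints (y axis, count) inside the peaks that touch each kinase gene's start regions (x axis), for replicate 1 (blue), replicate 2 (orange) and those of replicate 1 that overlap one of replicate 2 (green). Camk1d has the most, and no footprint inside the replicate 1 peaks of Camk1 and Camkk2 was shared.

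Of 36 listed genes from the rest of the pathway, 34 had an open start in both libraries, against the 59.2% of all genes. The list was made with earlier results of these data known, so this contrast only describes it. Over those 34 the median signal of the highest start was 2.10, against 2.30 over the 12982 open genes. Calmodulin and its buffers were open in 6 of 6 genes, led by the calmodulin genes Calm3, at 7.43 ± 0.57, and Calm2, at 4.88 ± 0.49 (SD, n = 2). Other kinase family members and regulators were open in 5 of 6, led by the CaMKII phosphatase Ppm1f at 3.49 ± 0.68, and with the CaMKII inhibitor Camk2n1 at 2.24 ± 0.15. The inhibitor Camk2n2 was open in replicate 2 alone, at 0.509.

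Calcineurin, the calmodulin-dependent phosphatase, was open in 6 of 7 genes. Its catalytic subunit gene Ppp3ca had 7.75 ± 1.04 and its inhibitor Rcan1 7.13 ± 0.02 (SD, n = 2), while Ppp3r2, a regulatory subunit known from testis, had no peak in either library. Other calmodulin-regulated kinases were open in 6 of 6, with Phkg2, a phosphorylase kinase subunit, at 5.29 ± 0.32 and Eef2k, which phosphorylates elongation factor 2, at 2.46 ± 0.13. The targets were open in 11 of 11. Hdac4, a histone deacetylase that leaves the nucleus once phosphorylated by these kinases, had 11.05 ± 0.87, and Creb1, the gene for CREB, had 6.09 ± 0.82 (SD, n = 2).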

How the data were processed

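DNase-seq peaks and footprints of 2 hippocampus libraries were used. Per the labels, the authors deposited for each library its own lists on mm10 and did not pool the libraries. No source used here names the aligner or the callers. Peak height is the authors' deposited signal, of 0 or more, and in each library 100% of the heights were whole multiples of 1 step (tolerance 0.05 of a step), whose meaning is not given. The authors' false discovery rates, which are p-value like, cover only intervals under 0.05. Every deposited footprint has the same threshold, 0.01, so none was ranked. The larger peak list was the main one, and the stricter list, with 55102 and 78377 peaks, an alternative.

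The 10 genes, the pathway and marker lists and the motifs were chosen with earlier results of these data known. Genes and starts came from GENCODE M21. A start was open where a peak touched 500 bp on either side, its signal was that of the highest such peak, and windows that overlapped were joined into start regions. Neighbourhoods were gene records with 20 kb flanks. Peaks of both libraries were joined with a minimum overlap of 1 bp. Named sites were, per gene, the highest site outside starts that both libraries shared, and, for the family, the highest site of 1 library. Motifs were matched letter by letter on both strands, and 2 patterns, said in the text, were added after the sequences had been seen. Means and SDs are over 2 libraries of 1 group, so no test was made. Intervals are Wilson 95% intervals of counting error. Computation used Python 3.11.15, NumPy 2.4.6 and bedtools 2.31.1, and overlaps were checked on simulated intervals. Alternatives were wider windows, 5′ ends or coding transcripts only, stricter or the 50000 highest peaks, other flanks, a reciprocal overlap of 0.5, other scalings and each library alone.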

Additional observations from a re-analysis of the deposited data

How the results depend on the processing

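The count of kinase genes with an open start, 9 of 10, stayed between 7 and 10 under every alternative run, while the share of all genes ran from 52.7 to 63.5%. With stricter peaks 7 genes remained, without Camk1, Camkk2 and Camk1g, and with the 50000 highest peaks 8, without Camk4 and Camk1g. A window of 2000 bp gave 10. The share of start regions open in both libraries, 33.3%, moved to 52.0% of 25 regions with the 2000 bp window, 47.6% of 21 with coding transcripts only, 22.2% with stricter peaks and 27.8% with the 50000 highest peaks. With 1 library left out it ran from 36.1 to 38.9%. For start regions the all-gene share, 30.9%, was taken for the main setting only, so none of these moves was compared with all genes. Shared sites fell to 66 with stricter peaks, against 109, since fewer peaks enter. Under a reciprocal overlap of 0.5 the peaks found again were 62.4% of replicate 1 and 54.0% of replicate 2, and with the 50000 highest peaks 77.2% of replicate 2. The pathway count stayed between 28 and 35 of 36, and the share of promoter footprints found again between 32.9 and 42.5%. The cause of these moves was not tested beyond the smaller lists. At the 5′ end alone Camk2b's signal was 0.914, against 2.38, and Camk2g's was 2.00 with the 2000 bp window, against 1.36, a value that mixes the inner site in replicate 1 with the 5′ peak in replicate 2. With the peaks at a gene's starts summed, Camk1d's signal was 4.40, against 1.82, and Camk2g's 3.31. Camk1's stayed at 1.25, and Camk4's rose to 1.64, above it. The libraries were also scaled by their median signals over all shared sites, 0.691 in replicate 1 and 0.835 in replicate 2. Camk2d's mean was then 3.59, against 3.56, and Camk1g's value, of 1 library, 0.944, against 1.03. The SDs given in the text are of the unscaled signals, so the closeness of the libraries at Camk2d holds for those only. No paired analysis was possible because the libraries form 1 group. With 2 libraries, an absent peak, as at Camk1g, shows only that none was called at this depth.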
